A study of Mus musculus with 6 samples.

Results

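The genes described here are 36 genes that type I interferons induce, out of 19505 named genes measured in the submandibular gland, a major salivary gland. They were taken as a list by gene symbol, with the brightest probe set standing for a gene, and each of the 36 had 1 probe set on the array. The glands came from 6 female mice aged 10 weeks, 3 of strain NOD.B6-Myd88+/+ and 3 of strain NOD.B6-Myd88−/−, with 1 Clariom S array per mouse and no treatment named in the labels. NOD mice develop autoimmune inflammation of the salivary glands, and Myd88 is the adaptor of most Toll-like receptors and of the interleukin-1 receptor family. Values are log2 expression values of whole-gland RNA, a mixture of epithelium, stroma and infiltrating leukocytes, in which fewer cells of a type and less RNA per cell cannot be told apart. The labels do not say which mice shared a litter, a cage or a processing day. The mice share the NOD background, and the labels say neither how much of another strain's genome the NOD.B6 mice carry nor in which cells Myd88 is lost.

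Type I interferons (the interferon-alpha family and interferon-beta) bind the receptor Ifnar1/Ifnar2, whose kinases Jak1 and Tyk2 activate the factor ISGF3. This factor, of which Stat2 and Irf9 are parts, binds the interferon-stimulated response element (ISRE) in the promoters of antiviral genes. Many of these genes also respond to interferon-gamma, through gamma-activated sites (GAS) or through Irf1. Induced genes of this kind are a familiar feature of Sjogren's syndrome, the human disease in which salivary glands are attacked.

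Promoter letters of the list were compared with those of all genes. RefSeq promoter windows of 300 bases (GRCm38.p6, 250 before and 50 after a transcription start) were found for 26 of the 36 genes. The ISRE core was searched on both strands as GAAA, any 2 bases and GAAA, and the GAS core as TTC, any 3 bases and GAA. At least 1 ISRE core lay in a window of 12 of the 26 genes (46.2%), against 3.99% of all 27025 genes with a window, and a GAS core in 7 of 26 (26.9%) against 9.55%. These shares describe the letters only, and a core in a window is not a measured binding site.

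Ifitm3, Trim30a and Bst2 are shown because they were the genes with a core among the 8 with the lowest log2 difference that were above background. Isg15 and Ifit3, chosen after their values were seen, are shown because they hold several cores and differed little between genotypes. Each stretch reads 5′ to 3′ on the strand of its gene, with the ISRE cores of both orientations in capitals, where overlapping cores run together.
Ifitm3 (chr7:141010716-141010742, minus strand, cores just after the start): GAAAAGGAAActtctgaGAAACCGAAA
Trim30a (chr7:104465194-104465259, minus strand): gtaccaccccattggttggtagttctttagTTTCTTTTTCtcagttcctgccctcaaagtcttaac
Bst2 (chr8:71537557-71537632, minus strand): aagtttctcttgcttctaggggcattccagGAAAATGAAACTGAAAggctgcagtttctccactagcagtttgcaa
Isg15 (chr4:156200845-156200926, minus strand): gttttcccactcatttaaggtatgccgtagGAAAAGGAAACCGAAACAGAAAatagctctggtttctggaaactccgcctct
Ifit3 (chr19:34583343-34583446, plus strand): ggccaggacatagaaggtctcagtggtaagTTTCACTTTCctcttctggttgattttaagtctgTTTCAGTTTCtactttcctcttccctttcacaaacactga

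The lower differences were not limited to genes with a core. The 12 genes with an ISRE core had a median log2 difference of −0.18 (11 lower in Myd88−/−), and the 14 without one had −0.65 (12 lower). Among those with a core, Oas1a, Isg15, Rsad2 and Oas3 were under background in both groups, with differences of −0.10 to 0.08. So were Ifit2, Oasl1 and Ifi44l among those without one, at −0.65, 0.02 and 0.53. The medians were not compared at like signal levels. Groups stood apart in either direction for 3 of the 12, all lower, and for 6 of the 14, of which Ifi44l was higher, against 15.1% of all probe sets. Isg15, with 3 overlapping cores, and Bst2, with 2, both have the repeated GAAA pattern printed above and read differently, as described below. Isg15 was under background in both groups, so its difference is poorly measured.

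The arrays were alike in overall signal. The 15 pairs of arrays correlated at 0.982 to 0.991 across probe sets, and 0 pairs held identical values. Background control probe sets had a median of 5.55, and a gene whose group means are both under it is called dim here. The middle 80% of probe sets covered 7.10 to 7.30 log2 units on Myd88+/+ arrays and 6.83 to 7.13 on Myd88−/− arrays, so the ranges of the groups overlapped. The Myd88 probe set read 7.81, 7.86 and 7.53 in Myd88+/+ and 7.33, 6.80 and 7.47 in Myd88−/− mice, a log2 difference of −0.53 (limma adjusted p = 0.462). No source used here says whether it lies in the deleted part, so it does not check the labels. Of the 36 genes, 0 lie on chromosome 9, which carries Myd88. All 5 markers of salivary acini were above background in both groups. Smgc, Lpo, Aqp5 and Bhlha15 had group means of 13.8 to 19.3, and Amy1 had 6.67 and 6.71. By group means 4 of 4 fat markers were dim. Myd88+/+ replicate 1 was the highest mouse for all 4, with Adipoq at 6.31 against 4.56 to 5.58 in the others. Of 4 lymph node stroma markers 3 were dim, and Ccl21a had means of 7.54 in Myd88+/+ and 7.37 in Myd88−/− mice. Of 4 skeletal muscle markers 3 were dim. Ckm had 7.39 and 6.73 and stood apart as lower in Myd88−/− mice, and the dim Myh4 as higher.

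The interferon-stimulated genes were mostly at a lower level in glands without Myd88, but none passed the test. Of the 36, 31 had a lower mean in Myd88−/− glands and 5 a higher one, with a median log2 difference of −0.51. Over all 22206 probe sets, 47.5% were lower and the median was 0.02. At a limma adjusted p under 0.05, 0 of the 36 passed, as did 0 probe sets in all (0% lower), and the smallest adjusted p among the 36 was 0.321, that of Rtp4. At an unadjusted p under 0.05, limma counted 11 of the 36 as lower, against 5.55% of all probe sets, and 1 as higher, against 4.5%. The values of all 3 Myd88−/− mice lay below all 3 Myd88+/+ values for 9 of the 36, against 7.25% of all probe sets, and above them for 1, against 7.84%. For a gene whose groups stand apart in this way the two-sided exact permutation p is 0.1, the smallest that 3 mice against 3 allow.

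Signal level bears on these counts. Both group means were under the background control median for 9 of the 36, namely Ifit2, Dhx58, Oas1a, Isg15, Rsad2, Oas2, Oasl1, Oas3 and Ifi44l, so their differences are poorly measured. Trim25, Ifit1 and Mx1 had 1 group mean under it. Of the 27 genes above background in at least 1 group, 25 were lower in Myd88−/− glands, with a median difference of −0.61. All 13230 probe sets above background in a group had a median of −0.05, and 57.2% of them were lower. The 9 dim genes had a median of −0.07, with 6 lower and 3 higher.

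**Figure D1:**
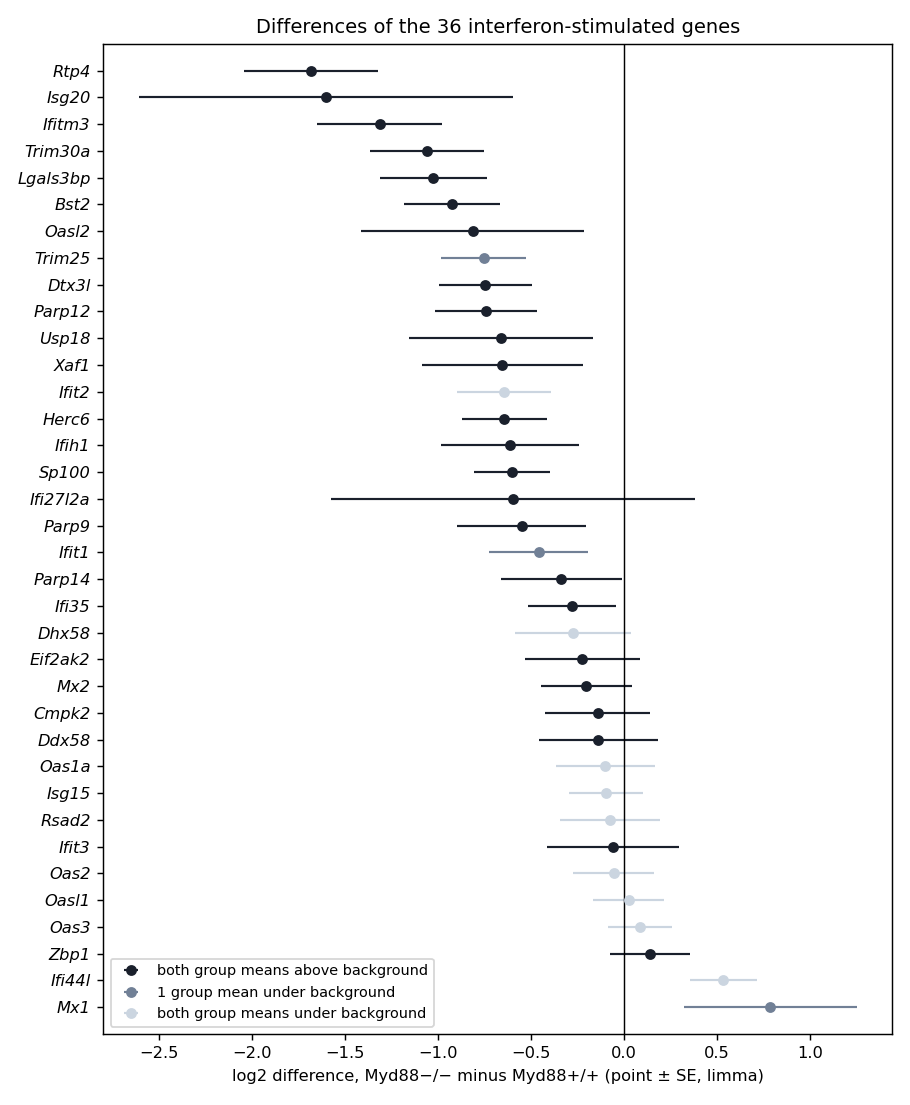
Log2 difference between Myd88−/− and Myd88+/+ glands for each of the 36 genes, with the standard error from limma, ordered from the lowest and shaded by whether group means exceeded the background control median of 5.55. Differences ran from −1.69 for Rtp4 to 0.79 for Mx1, and the dim genes other than Ifit2 and Ifi44l lay between −0.28 and 0.08.

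Antiviral effectors made up 17 of the genes, and 13 of them were lower in Myd88−/− glands, against 47.5% of all probe sets. At an unadjusted p under 0.05, limma counted 3 as lower, against 5.55% of all probe sets. Ifitm3, a membrane protein that blocks entry of enveloped viruses, read 11.84, 12.33 and 12.76 in Myd88+/+ and 10.80, 11.71 and 10.49 in Myd88−/− mice. The groups did not overlap, and Myd88−/− replicate 2 came nearest to the wild-type values. Its log2 difference was −1.32 (SE 0.33, 2.49-fold lower, limma adjusted p = 0.357). Close relatives of Ifitm3 can share probes with it, so its own level is uncertain to that degree. Bst2 (tetherin), which holds budding virus particles at the cell surface, read 7.51, 8.18 and 8.60 in Myd88+/+ and 7.17, 7.10 and 7.23 in Myd88−/− mice. All Myd88−/− values lay within 0.13 of each other and below the lowest wild-type value. The log2 difference was −0.93 (SE 0.26, 1.90-fold lower, limma adjusted p = 0.381).

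The lowest difference among the effectors came from a single mouse. Isg20, an exonuclease that degrades single-stranded RNA, read 6.82, 6.65 and 11.25 in Myd88+/+ and 6.72, 6.49 and 6.70 in Myd88−/− mice. Only Myd88+/+ replicate 3 stood apart, and the remaining 5 mice lay between 6.49 and 6.82. The log2 difference of −1.60 (limma adjusted p = 0.632) was −0.10 without that mouse. The same mouse had the highest level of the T cell receptor chain gene Cd3e, chosen after its values were seen, with 8.26 against 4.74 to 5.85 in the other mice. It was the highest mouse for all 5 T cell markers, also widely for Cd3g (7.58 against at most 5.35). For the others the margin was narrow. Cd3d read 6.01 against 5.96 and Cd4 8.36 against 8.21 in Myd88+/+ replicate 2, and Cd8a 5.73 against 5.50 in Myd88−/− replicate 3. The part of T cells in the Isg20 value was not tested. Oasl2, a relative of the oligoadenylate synthetases, read 6.52, 8.69 and 9.39 in Myd88+/+ and 7.08, 7.62 and 7.46 in Myd88−/− mice. Here Myd88+/+ replicate 1 was the lowest of all 6 and the groups overlapped, with a difference of −0.81 (−0.22 without Myd88+/+ replicate 3).

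The other effectors differed less or were near background. Ifit1, Ifit2 and Ifit3 are related genes whose proteins bind viral RNA or one another. Ifit2 was dim at 5.46 ± 0.53 and 4.81 ± 0.09 (SD, n = 3 each), and Ifit1 read 5.86 ± 0.50 and 5.40 ± 0.29 (SD, n = 3 each). Their differences of −0.65 and −0.46 were −0.41 and −0.20 without Myd88+/+ replicate 3. Ifit3 was well above background and read 7.60, 8.38 and 8.97 in Myd88+/+ and 8.24, 8.75 and 7.78 in Myd88−/− mice. Its highest and lowest values were both wild-type, and the difference of −0.06 was 0.27 without Myd88+/+ replicate 3. The oligoadenylate synthetases Oas1a, Oas2 and Oas3 and the related Oasl1 were all dim, with differences of −0.10 to 0.08, and so was the radical SAM enzyme Rsad2 (viperin) at −0.07. Cmpk2, a nucleotide kinase gene beside Rsad2, read 6.27, 6.87 and 7.27 in Myd88+/+ and 6.40, 7.08 and 6.49 in Myd88−/− mice. The groups overlapped, with a difference of −0.14, and the RNA-activated kinase Eif2ak2 (PKR) had −0.22. Zbp1, a sensor of Z-form nucleic acid, read 6.56, 6.57 and 6.56 in Myd88+/+ and 6.45, 6.50 and 7.16 in Myd88−/− mice. Its difference of 0.14 came from Myd88−/− replicate 3 and was −0.09 without it.

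The Mx genes, neighbours that encode antiviral GTPases, had differences of opposite sign. Mx1 read 4.48, 5.12 and 6.68 in Myd88+/+ and 6.36, 5.94 and 6.33 in Myd88−/− mice. Wild-type replicates 1 and 2 lay under the background control median, while replicate 3 and all Myd88−/− mice lay above it. The log2 difference was 0.79 (SE 0.46, limma adjusted p = 0.603), the highest of the 36, and 1.41 without Myd88+/+ replicate 3. Mx2 read 6.30, 7.02 and 7.26 in Myd88+/+ and 6.70, 6.67 and 6.60 in Myd88−/− mice, a difference of −0.20 (−0.004 without Myd88+/+ replicate 3). The mean of Mx2 was above background in both groups, and the groups overlapped for both genes. The difference between the genes' contrasts was not tested.

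Members of the ISG15 system and the TRIM ligases were lower in 5 of 5 cases. Of these, 3 were lower at an unadjusted p under 0.05 by limma, against 5.55% of all probe sets. Trim30a, a TRIM protein that restrains Toll-like receptor signalling, read 6.41, 6.82 and 7.60 in Myd88+/+ and 5.99, 6.17 and 5.48 in Myd88−/− mice. The groups did not overlap, and the difference was −1.06 (SE 0.31, 2.09-fold lower, limma adjusted p = 0.384). Trim30a belongs to a cluster of similar genes, whose probes it may share. Trim25, the ubiquitin ligase that activates the RNA sensor RIG-I, read 6.15, 6.33 and 6.38 in Myd88+/+ and 5.51, 5.97 and 5.10 in Myd88−/− mice. In contrast to most genes of the list, its wild-type values were close together and its Myd88−/− values spread. Its difference was −0.76 (SE 0.23, limma adjusted p = 0.388), of which little depended on Myd88+/+ replicate 3 (−0.71 without it).

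Herc6, the main ligase that attaches ISG15 to proteins in mice, read 7.99, 8.22 and 8.85 in Myd88+/+ and 7.65, 7.68 and 7.80 in Myd88−/− mice. The groups did not overlap, with a difference of −0.65 (SE 0.23, limma adjusted p = 0.436) that was −0.40 without Myd88+/+ replicate 3. Usp18, which removes ISG15 and restrains the type I receptor, read 6.71, 8.12 and 8.73 in Myd88+/+ and 6.47, 7.84 and 7.27 in Myd88−/− mice. Its groups overlapped, and the difference of −0.66 was −0.23 without Myd88+/+ replicate 3 and −1.23 without Myd88+/+ replicate 1. Isg15 itself, the ubiquitin-like modifier, was dim and differed by −0.10, with means of 4.91 ± 0.19 in Myd88+/+ and 4.81 ± 0.27 in Myd88−/− mice (SD, n = 3 each).

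The ADP-ribosyltransferases Parp9, Parp12 and Parp14 and the ubiquitin ligase Dtx3l, partner of Parp9, were lower in 4 of 4 cases. Of these, 2 were lower at an unadjusted p under 0.05 by limma, against 5.55% of all probe sets. Dtx3l read 7.41, 8.11 and 8.39 in Myd88+/+ and 7.32, 7.31 and 7.03 in Myd88−/− mice. Its groups were apart by a narrow margin at Myd88+/+ replicate 1, and the difference was −0.75 (SE 0.25, limma adjusted p = 0.424). Parp12 read 9.60, 10.24 and 10.62 in Myd88+/+ and 9.22, 9.76 and 9.24 in Myd88−/− mice, a difference of −0.74 with overlap. Parp9 and Parp14, which lie beside Dtx3l on chromosome 16, had −0.55 and −0.34, which were −0.25 and −0.009 without Myd88+/+ replicate 3.

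The 3 cytosolic RNA sensors, which detect viral RNA and trigger interferon production, overlapped between genotypes. Ifih1 (MDA5) read 8.18, 9.15 and 9.89 in Myd88+/+ and 8.29, 8.72 and 8.36 in Myd88−/− mice, a difference of −0.61 (limma adjusted p = 0.614) that was −0.20 without Myd88+/+ replicate 3. Myd88+/+ replicate 1 was again below all Myd88−/− mice, and without it the difference was −1.06. Ddx58 (RIG-I) read 8.26, 8.81 and 9.66 in Myd88+/+ and 8.81, 8.96 and 8.54 in Myd88−/− mice. The Myd88−/− values lay inside the wild-type range, and the difference of −0.14 was 0.24 without Myd88+/+ replicate 3. The dim Dhx58 (LGP2), a regulator of both, had −0.28, and −0.06 without that mouse.

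Among the remaining 7 genes, 6 were lower. At an unadjusted p under 0.05, limma counted 3 as lower, against 5.55% of all probe sets, and 1 as higher, against 4.5%. Rtp4, a chaperone of G protein-coupled receptors that interferon induces, read 6.60, 7.26 and 8.27 in Myd88+/+ and 5.54, 5.68 and 5.86 in Myd88−/− mice. All Myd88−/− values were close to the background control median and below every wild-type value, so the size of the difference may be understated. It was −1.69 (SE 0.36, 3.22-fold lower, limma adjusted p = 0.321), the lowest of the 36, and −1.24 without Myd88+/+ replicate 3. Lgals3bp, a secreted glycoprotein that binds galectin-3, read 7.60, 8.80 and 8.53 in Myd88+/+ and 7.17, 7.43 and 7.25 in Myd88−/− mice. Its groups did not overlap, and the difference was −1.03 (SE 0.29, 2.04-fold lower, limma adjusted p = 0.382). Sp100, a component of nuclear bodies, read 14.75, 15.13 and 15.35 in Myd88+/+ and 14.49, 14.66 and 14.27 in Myd88−/− mice, a difference of −0.60 (SE 0.20, limma adjusted p = 0.428). Sp100 has many related copies in the mouse genome that can add to this signal.

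Xaf1, which promotes cell death, Ifi27l2a, a small mitochondrial protein, and Ifi35 all overlapped between genotypes, with differences of −0.65, −0.60 and −0.28. Without Myd88+/+ replicate 3 that of Xaf1 was −0.11. Ifi27l2a varied most within groups after Isg20, reading 5.51, 8.84 and 9.63 in Myd88+/+ and 7.83, 8.42 and 5.93 in Myd88−/− mice. Its highest and lowest values were both wild-type. The difference was 0.22 without Myd88+/+ replicate 3 and −1.84 without Myd88+/+ replicate 1. Ifi44l was the only gene whose Myd88−/− values were all higher, at 4.91, 4.61 and 4.80 against 4.09, 4.17 and 4.46 in Myd88+/+ mice. Every one of these values was under the background control median, and the difference was 0.53 (limma adjusted p = 0.424).

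**Figure D2:**
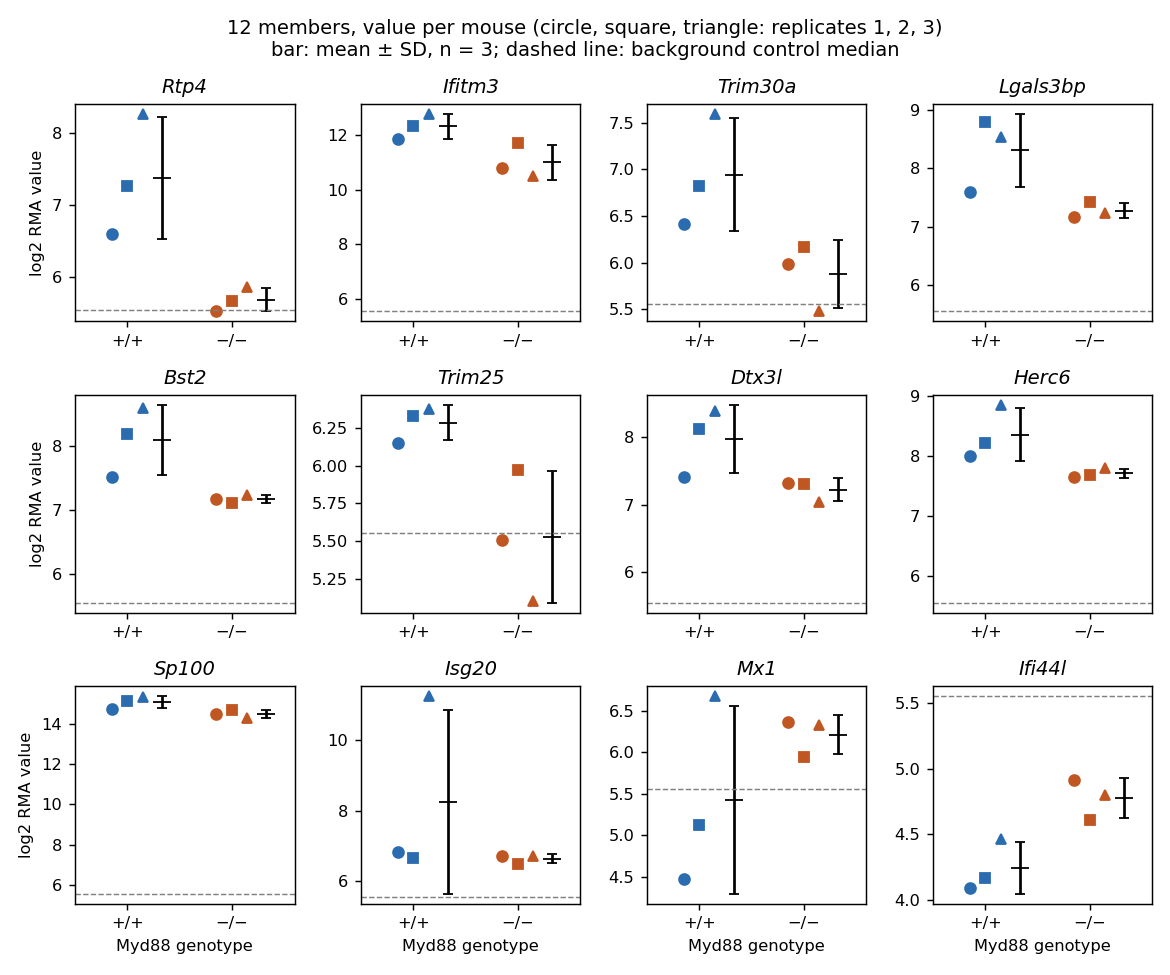
Log2 expression value per mouse for 12 of the genes, by Myd88 genotype, with mean ± SD (n = 3) and the background control median as a dashed line, each panel with its own vertical scale. In the first 9 panels every Myd88−/− value lies below every Myd88+/+ value, the Isg20 difference rests on 1 wild-type mouse at 11.25, and in Mx1 and Ifi44l the Myd88−/− mean is higher.

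The genes varied more among wild-type mice than among Myd88−/− mice, and in a shared order. The SD was wider in Myd88+/+ than in Myd88−/− mice for 29 of the 36 genes (80.6%), with median SDs of 0.51 and 0.27, whereas over all probe sets it was wider for 45.7%, with medians of 0.21 and 0.23. Myd88+/+ replicate 1 was the lowest wild-type mouse for 33 of the 36 (91.7%), compared with 34.0% of all probe sets. Myd88+/+ replicate 3 was the highest wild-type mouse for 28 (77.8%), compared with 31%, and the highest of all 6 mice for 26. These 36 counts come from the same 3 arrays and are not independent observations.

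Against the Myd88−/− mice, the wild-type mice differed among themselves. Myd88+/+ replicate 1 was above all Myd88−/− mice for 10 genes (27.8%), close to the 28.1% of all probe sets, within their range for 12 and below them all for 14. Myd88+/+ replicate 2 was above them all for 25 genes (69.4%), against 24.2% of all probe sets, and Myd88+/+ replicate 3 for 28 (77.8%), against 22.9%. Centred on its mean over the 6 mice, the median gene of the list stood at −0.25, 0.36 and 0.77 in Myd88+/+ replicates 1, 2 and 3 and at −0.31, 0.02 and −0.40 in Myd88−/− replicates 1, 2 and 3. The groups thus overlapped on this measure, 1 wild-type mouse falling among the Myd88−/− mice.

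**Figure D3:**
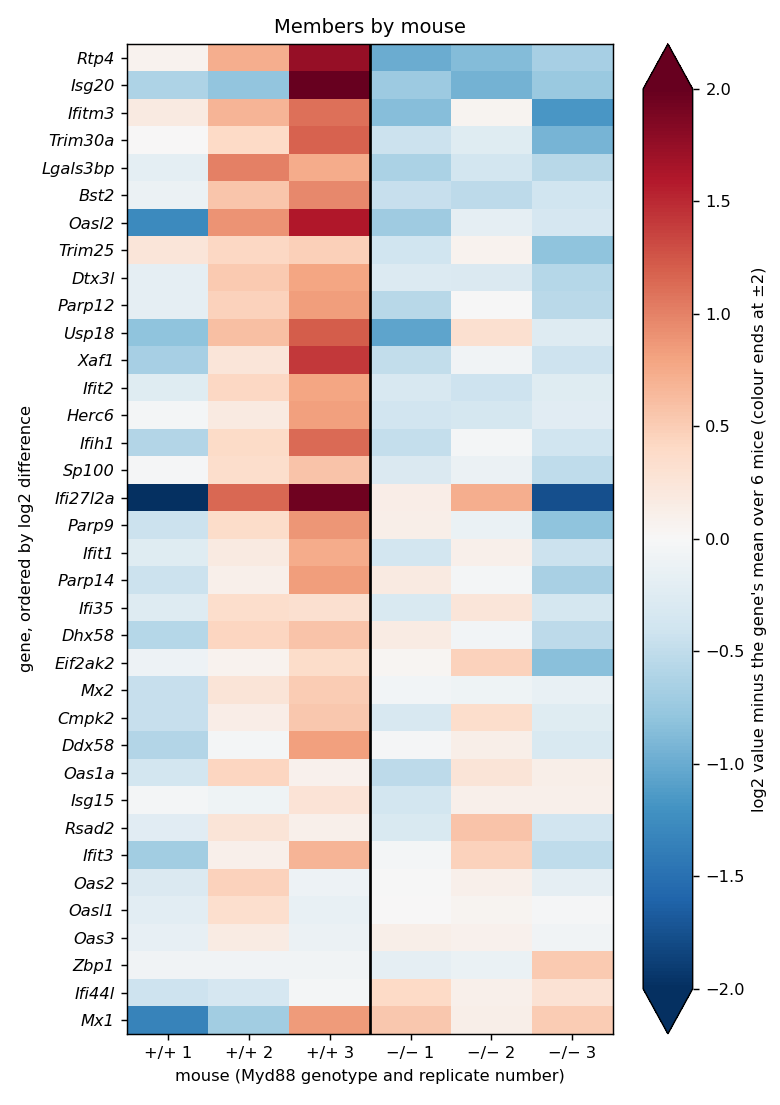
Log2 value of each gene minus its mean over the 6 mice, with genes in rows by genotype difference and mice in columns; red is above and blue below the gene's mean. The column of Myd88+/+ replicate 3 is red for most genes, and that of Myd88+/+ replicate 1 is blue or pale, like the Myd88−/− columns.

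The counts depended on these wild-type mice. Without Myd88+/+ replicate 3, 27 of 36 genes were lower, the median difference was −0.12, 6 genes were lower at an unadjusted p under 0.05 by limma, and the groups stood apart in the lower direction for 9. In that fit of 2 wild-type mice the shares over all probe sets were 4.92% and 12.9%. Without Myd88+/+ replicate 1, 32 were lower, the median was −0.73, 20 were lower at an unadjusted p under 0.05 and the groups stood apart in the lower direction for 21, against 4.63% and 11.2% of all probe sets. Without Myd88−/− replicate 3, the median was −0.24 and 7 were lower at an unadjusted p under 0.05, against 3.77% of all probe sets. Adjusted over all probe sets, 0 of the 36 passed limma's test in any of these fits.

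Upstream of the list, most interferon genes themselves were near background. The 15 type I and III interferon genes measured, whose transcripts are usually scarce in tissue, had 10 dim members, 5 lower and 10 higher means in Myd88−/− glands, and a median difference of 0.11. At an unadjusted p under 0.05, 0 of these 15 were counted by limma, and 0 passed adjusted. The 2 with the smallest p were Ifnl2 at 0.30 and Ifna14 at 0.31. Family members with near-identical sequences can share probes. Interferon-gamma (Ifng) had −0.31 and its receptor chain Ifngr2 −0.23, and both group means of Ifng were under the background control median.

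The receptor and ISGF3 were lower in 6 of 6 measured genes, with a median of −0.40, and 0 passed adjusted. Ifnar2, the receptor chain that binds interferon tightly, read 12.46, 12.49 and 12.71 in Myd88+/+ and 12.27, 11.96 and 12.12 in Myd88−/− mice, without overlap and with a difference of −0.44 (SE 0.17, limma adjusted p = 0.457). Ifnar1, also without overlap, had −0.19, and the kinases Jak1 and Tyk2 had −0.36 and −0.31, the former −0.18 without Myd88+/+ replicate 3. Stat2 read 9.69, 10.48 and 11.61 in Myd88+/+ and 9.87, 10.23 and 9.63 in Myd88−/− mice, a difference of −0.68 that was −0.18 without Myd88+/+ replicate 3. Irf9, the DNA-binding subunit, read 7.73, 9.01 and 8.88 in Myd88+/+ and 7.90, 7.73 and 7.54 in Myd88−/− mice, a difference of −0.81. Stat2 and Irf9 thus also had their lowest wild-type value in Myd88+/+ replicate 1, inside the Myd88−/− range.

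Genes that drive interferon induction were split, with 10 of 14 lower, a median of −0.10 and 0 passing adjusted. Irf7, which amplifies interferon-alpha production and is itself interferon-induced, was dim and read 4.08, 5.96 and 6.54 in Myd88+/+ and 4.49, 5.75 and 4.17 in Myd88−/− mice, a difference of −0.73 (−0.22 without Myd88+/+ replicate 3). The 2 with the smallest p were Sting1 and Irf1. Sting1, the adaptor of cytosolic DNA sensing, read 6.99, 7.14 and 7.60 in Myd88+/+ and 6.22, 6.18 and 6.69 in Myd88−/− mice, a difference of −0.88 without overlap (SE 0.22, limma adjusted p = 0.356). Irf1, an activator shared with the interferon-gamma response, read 8.27, 8.16 and 9.06 in Myd88+/+ and 7.34, 7.83 and 7.11 in Myd88−/− mice, a difference of −1.07 without overlap (SE 0.28, limma adjusted p = 0.361). As many genes of this list stood apart in the higher direction, namely the kinase gene Ikbke at 0.49 and the dim Irf5 at 0.22. Over all probe sets, 7.25% stood apart in the lower and 7.84% in the higher direction. Of 6 negative regulators, Usp18 among them, 5 were lower and 0 passed adjusted. The 2 with the smallest p were Ptpn6, a phosphatase of blood cells, at −0.71 and Pias1, an inhibitor of interferon signalling, at −0.51.

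Genes better known as interferon-gamma targets showed the same ordering of wild-type mice. Of 16, 15 were lower with a median difference of −1.51. At an unadjusted p under 0.05, limma counted 12 as lower, against 5.55% of all probe sets, and 0 passed adjusted. Groups stood apart in the lower direction for 10, against 7.25% of all probe sets. The remaining gene, the dim Ido1, was higher by 0.75 and stood apart in that direction. The 2 with the smallest p were the T cell-attracting chemokines Cxcl9 at −4.07 and Cxcl10 at −1.21, and Cxcl10 had its Myd88−/− mean under background. Their median stood at −0.22, 0.79 and 1.67 in Myd88+/+ replicates 1, 2 and 3 and at −0.70, −0.63 and −0.76 in the Myd88−/− mice. No test compared this list with the 36 genes, and both contrasts use the same arrays.

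Markers of several other cell types were lower in the same glands. All 4 pan-leukocyte genes and all 10 macrophage and monocyte markers were lower in Myd88−/− glands, with median differences of −1.19 and −1.15 and 0 passing adjusted. On the linear scale the summed leukocyte markers ran from 1179 to 4166 in Myd88+/+ and from 690 to 977 in Myd88−/− mice, and the summed macrophage markers from 4162 to 11971 and from 2178 to 2798. Such sums weigh the brightest genes of a list most and are not amounts of a cell type. The 5 T cell markers were all lower (sums 311 to 943 and 231 to 360), 1 of them dim and 3 with 1 mean under background, and so were the 5 NK cell markers (286 to 510 and 198 to 257). Among 4 markers of plasmacytoid dendritic cells, a main source of interferon-alpha, 2 were lower and 2 higher (177 to 280 and 239 to 281), and 2 of them were dim. Of 4 B cell markers, 3 were lower (77 to 133 and 90 to 104) and 3 were dim. Of 5 endothelial markers, 4 were lower (793 to 1038 and 674 to 943). All 6 markers of myoepithelium were lower with a median of −0.59 (12696 to 20888 and 7195 to 13306). Of 8 duct markers, 5 were lower and 3 higher, among the latter Elf5 at 0.48. Ascl3 at −0.96, Foxi1 at −0.60 and the dim Krt19 at −0.24 stood apart in the lower direction, against 7.25% of all probe sets. By the median of the leukocyte, macrophage, T cell, B cell and myoepithelium lists Myd88+/+ replicate 3 was the highest mouse, as it was for the interferon-stimulated genes. By that of the NK cell list Myd88+/+ replicates 2 and 3 were both at 0.67. The part of these cells in the values of the 36 genes was not tested.

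**Figure D4:**
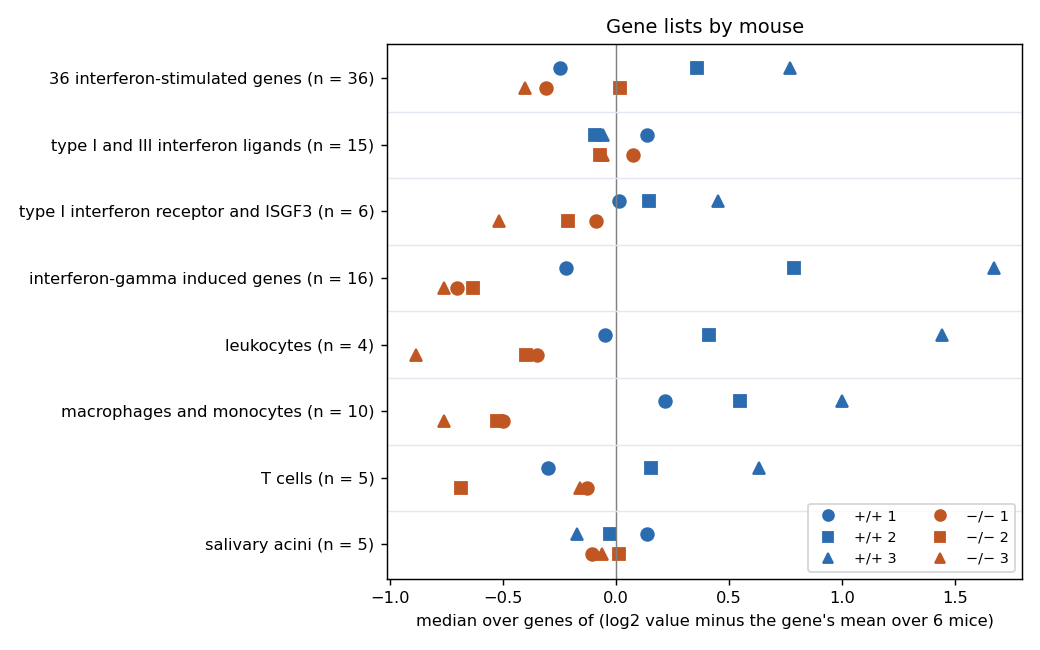
Median over each gene list of the log2 value minus the gene's mean over 6 mice, 1 point per mouse, with Myd88+/+ mice in blue, Myd88−/− mice in orange and the replicate number as the shape. For the 36 interferon-stimulated genes Myd88+/+ replicate 1 (−0.25) lies among the Myd88−/− mice, which for macrophage markers it does not (0.22 against −0.76 to −0.50), and the interferon ligand genes span a narrow range in both groups.

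Cell type lists did not all place Myd88+/+ replicate 1 alike. By the macrophage median it was above every Myd88−/− mouse, whereas by the T cell median (−0.30 against −0.69 to −0.13) it lay between them, as by the median of the 36 genes. By the B cell median it was the lowest of the 6 mice, at −0.21. These placements were not tested.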

How the data were processed

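Each of the 6 mice had 1 array of whole-gland RNA. The authors deposited values on a log2 scale, summarised by robust multi-array averaging. Per the submitters' processing notes this was done in the Transcriptome Analysis Console, for which neither a version nor an annotation build was at hand. The values (2.26 to 19.93) fit that scale. Of 28846 probe sets, 6640 controls were left out, and of the 22206 tested, 19572 had 1 gene symbol, 0 several and 2634 were unnamed here. All 36 genes were found by symbol. Groups came from the sample titles, and p-values measure only the spread between these samples. Differences are Myd88−/− minus Myd88+/+, from limma 3.58.1 (R 4.3.3, lmFit and eBayes, genotype alone in the model). P-values were adjusted by Benjamini and Hochberg's method across every tested probe set, at a threshold of 0.05. The fit was tested on simulated data with independent noise and 200 changed probe sets, which does not cover genes that move together in a mouse. Depth has no meaning for arrays, whose number limits the precision. The 36 genes and all lists were chosen with earlier results of these data known.

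Values in every mouse are given for the 8 genes with the lowest and the 5 with the highest difference above background, for genes whose groups stand apart and for the 3 with the highest signal. Isg15, Usp18, Ifih1, Mx2, Ifi27l2a, Ikbke, Irf5 and Ido1 were picked after their values were seen. So were the named T cell, acinar, duct, fat, lymph node and muscle markers. The rule also names the receptor and ISGF3 genes, Irf7 and up to 2 genes per pathway list with the smallest p. Linear sums add 2 to the power of each log2 value. In the lists 3 older symbols were updated, giving Sting1, Cgas and, from Muc19, Smgc, which the list of acinar markers already held and which was counted once, and 10 listed genes had no named probe set here. The alternatives were quantile normalization, median centring, dropping the dimmest 50% of probe sets, a trended robust variance, weights per array, the replicate number as a block, averaging a gene's probe sets, and leaving out each mouse in turn.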

Additional observations from a re-analysis of the deposited data

How the results depend on the processing

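In all 13 alternatives 0 of the 36 genes passed limma's adjusted test, the smallest adjusted p being 0.102 (Lgals3bp, whose range reached 0.682). The number of probe sets called in all was 0 except 2 with median centring, 4 with an intensity trend and robust variances, and 0 to 5 when a mouse was left out. Without a mouse, 27 to 32 of the genes were lower, the median difference ran from −0.73 to −0.12, 6 to 20 were lower at an unadjusted p under 0.05, and 9 to 21 stood apart in the lower direction. Over all probe sets the shares in those fits were 3.77% to 7.32% and 10.9% to 15.5%. The median was −0.49 with quantile normalization, −0.53 with median centring, −0.56 with array weights and −0.63 over the 24 genes left without the dimmest 50% of probe sets. The mean of a gene's probe sets changed nothing, as each gene had 1. Whether the numbers in the titles pair the mice could not be settled. Deviations of same-numbered mice correlated at −0.11, −0.16 and −0.02, and 0 of 6 mice correlated best with their own number. These values gave no sign of pairing by number. With so few mice in a group they cannot exclude a shared litter, cage or processing day. With the replicate block 31 genes were lower and 0 passed.

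Of the 36 genes, 25 kept their sign in every alternative. With quantile normalization Ifit3 turned to 0.056 and Oasl1 to −0.025, and with array weights Oasl1 was −0.033. Leaving out a mouse turned the sign of 11, over ranges of −0.41 to 0.091 for Cmpk2, −0.46 to 0.24 for Ddx58, −0.51 to 0.14 for Eif2ak2, −1.84 to 0.22 for Ifi27l2a, −0.42 to 0.27 for Ifit3, −0.18 to 0.0585 for Isg15, −0.31 to 0.13 for Oas1a, −0.21 to 0.16 for Oas2, −0.079 to 0.20 for Oasl1, −0.38 to 0.10 for Rsad2 and −0.088 to 0.27 for Zbp1. The cause was not tested. With 9 genes dim and 3 mice a group, small differences were not detectable here. Large ones did not pass in the main fit either. The limma adjusted p was 0.321 for Rtp4 at −1.69 and 0.339 for Cxcl9 at −4.07.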
